A study of Mus musculus with 20 samples.

Results

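Progress through the cell cycle is driven by cyclin-dependent kinases (CDKs), which are inactive until a cyclin binds them, and the cyclins are made and destroyed in turn. D-type cyclins with Cdk4 or Cdk6 act in G1 and are switched on by growth signals. E-type cyclins with Cdk2 act at the entry into S phase, cyclin A2 acts in S phase and G2, and B-type cyclins with Cdk1 drive mitosis. T cells at rest hold little of the later cyclins, which appear once the cells divide.

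Here 10 genes of this machinery are described: the D-type cyclins Ccnd2 and Ccnd3, the E-type cyclins Ccne1 and Ccne2, cyclin A2 (Ccna2), the B-type cyclins Ccnb1 and Ccnb2, and the kinases Cdk1, Cdk2 and Cdk6. They are taken by name, and all 10 were found by symbol among the 16740 genes of the spleen and pLN table and among the 16784 genes of the mLN table. All 10 also passed the only filter on low values, at least 1 count in total over a table.

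The libraries are mRNA sequencing of Treg cells (CD4+Foxp3+) and of CD4+Foxp3- T cells, each sorted from C57BL/6 mice aged 14 weeks. WT mice carried the Foxp3Cre allele, which makes a fusion of the fluorescent protein YFP and Cre recombinase from the Foxp3 locus, and DKO mice (Tet2/3fl/flFoxp3Cre) carried it together with floxed Tet2 and Tet3, so both genotypes expressed Cre in Treg cells. The 8 libraries of pooled spleen and peripheral lymph nodes (pLNs) hold 2 replicates of each of 4 groups, and the 12 libraries of mesenteric lymph nodes (mLNs) hold 3 of each. Each tissue was deposited as a table of its own and was tested on its own. As a model, the design has limits: Cre acts only in cells that express or have expressed Foxp3, Foxp3- cells were sorted as YFP-, so a cell in which Cre acted and Foxp3 was later lost would be sorted with them, and the Foxp3- cells of DKO mice shared a host with DKO Treg cells. The study calls the replicates biological, and the p-values measure the spread between these libraries.

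The libraries held between 13525932 and 15253141 counted reads in spleen and pLNs and between 9998478 and 15449158 in mLN. Summed levels of 6 T cell identity genes ranged from 4070 to 6460 CPM (read counts scaled to a common library size after TMM normalization) over all 20 libraries, and Foxp3, which defines Treg cells, was at 153 to 419 CPM in the 10 Treg libraries and at 0.211 to 2.75 CPM in the 10 libraries of CD4+Foxp3- T cells, so the sorted cells carried their defining markers. Tet2 was at 10.4 to 10.8 CPM in WT against 7.69 to 12.8 CPM in DKO Treg cells of mLN, and at 2.08 and 1.11 CPM against 8.01 and 2.05 CPM in those of spleen and pLNs. Tet3 was at 69 to 86.5 CPM in WT against 48.4 to 73.3 CPM in DKO Treg cells of mLN, and at 31 and 30.6 CPM against 61 and 38.1 CPM in those of spleen and pLNs, where 1 or both DKO libraries thus exceeded WT for each gene. These counts cover whole genes, also any exons outside the floxed parts, and so check nothing about the deletion, and the genotype was taken from the labels. In spleen and pLNs, DKO replicate 1 lay far from DKO replicate 2 for several of the 10 genes in CD4+Foxp3- T cells, and DKO against WT differences of these cells are given with and without each. The longest 10% of genes took between 6.13% and 6.81% of reads in 6 of these 8 libraries, 10.1% in DKO Treg replicate 1 and 7.67% in CD4+Foxp3- DKO replicate 1, and between 10.1% and 12.1% in mLN.

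Levels of different genes can be compared only per length, on the scale of the deposited TPM. In WT Treg cells of mLN, Ccnd2 had the highest level with 208 ± 10.2 TPM (SD, n = 3) and Ccnd3 came next with 106 ± 7.93 TPM. Cdk2 followed at 20.5 ± 2.5 TPM, Ccna2 at 16.9 ± 3.11 TPM, Ccnb2 at 13.5 ± 3.69 TPM, Ccnb1 at 10.6 ± 2.29 TPM, Cdk1 at 7.95 ± 2.25 TPM and Cdk6 at 6.96 ± 0.543 TPM, and each of these overlapped with its neighbour in the order. Ccne1 at 5.82 ± 0.481 TPM and Ccne2 at 1.61 ± 0.162 TPM lay below Cdk6 without overlap. So the D-type cyclins stood apart from the other 8 genes in every WT library of mLN without overlap.

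In DKO Treg cells of mLN, the same scale gave 190 ± 33.4 TPM for Ccnd2 and 97.6 ± 7.52 TPM for Ccnd3. Ccna2 at 60.2 ± 10.4 TPM, Ccnb2 at 58.7 ± 15 TPM and Ccnb1 at 35.4 ± 11.2 TPM came next, ahead of Cdk2 at 27.4 ± 2.35 TPM and Cdk1 at 25 ± 3.46 TPM. Ccne1 was at 17 ± 2.54 TPM, Cdk6 at 16.3 ± 2.28 TPM and Ccne2 at 5.59 ± 1.05 TPM. In this order Ccna2 overlapped with Ccnb2, Ccnb2 with Ccnb1, Ccnb1 with Cdk2, Cdk2 with Cdk1 and Ccne1 with Cdk6.

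**Figure D1:**
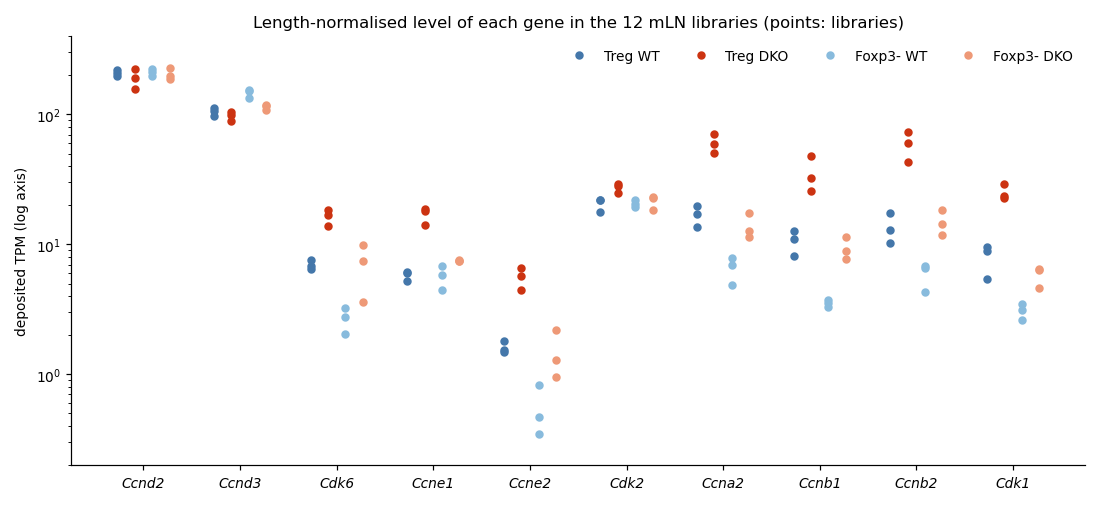
Deposited TPM (log axis) of the 10 genes in the 12 mLN libraries, 1 point per library, coloured by group, with Foxp3- standing for CD4+Foxp3- T cells. Ccnd2 lies between 156 and 227 TPM in all groups, while Ccne2 lies between 0.345 and 0.823 TPM in WT CD4+Foxp3- T cells and between 4.47 and 6.55 TPM in DKO Treg cells.

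Positions are those of NCBIM37, the assembly of mm9, on which the study aligned its reads, with the GENCODE M1 annotation. Ccnd2 lies on chromosome 6 (127075797 to 127101066, minus strand), Ccnd3 on chromosome 17 (47642000 to 47736632, plus strand) and Cdk6 on chromosome 5 (3343893 to 3523218, plus strand). Ccne1 lies on chromosome 7 (38883003 to 38892553, minus strand), Ccne2 on chromosome 4 (11118498 to 11131926, plus strand) and Cdk2 on chromosome 10 (128134995 to 128142107, minus strand). Ccna2 lies on chromosome 3 (36463788 to 36471072, minus strand), Ccnb1 on chromosome 13 (101548605 to 101556525, minus strand), Ccnb2 on chromosome 9 (70255496 to 70269361, minus strand) and Cdk1 on chromosome 10 (68799383 to 68815686, minus strand). The counts are sums over exons of a whole gene, untranslated parts included. Genes of the other strand overlap Ccna2, Ccnd2, Ccnd3, Ccne2 and Cdk6, but the counting used strand and no gene of the same strand lies over exons of any of the 10.

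Counts of Ccnb1 and Ccnd3 are uncertain, because the genome holds near-identical copies of both. The Ccnb1 transcript has 6 other matches of at least 100 bases and 90% identity, the closest of them the pseudogene Gm5593 with 99.1% identity, and 39.6% of the 50-base reads it could give occur exactly in that copy. The pseudogene Ccnd3-ps holds 17.0% of the 50-base reads of Ccnd3. For the other 8 genes at most 0.217% of such reads occur in any 1 copy. The study kept at most 1 alignment per read, so a shared read can have been placed on either copy.

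Promoters of 7 of the 10 genes were in the RefSeq promoter table used here, and Ccna2, Ccnd2 and Ccne2 were not. Cell cycle genes that peak in G2 and mitosis are known for CCAAT boxes and for the cell cycle genes homology region (CHR), and genes that peak at the entry into S phase for E2F sites. Each window of 250 bases before the start was searched on both strands for the CCAAT box (CCAAT), the CHR (TTTGAA or TTCGAA) and E2F sites (TTTGGCGC, TTTCGCGC, TTCGCGCC or TTGGCGCC). Of the 32851 promoters of the table, 33.8% hold a CCAAT box, 17.1% a CHR, 1.46% an E2F site, and 1.71% at least 2 CCAAT boxes and a CHR.

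Printed here are the windows of Ccnb2, Cdk1 and Ccnb1, 3 of the 5 genes that were called higher in DKO mice in both cell types of mLN, chosen with the motif counts known, and that of Cdk2, which was not called anywhere. The window of Cdk6, which was called in both as well, holds none of these motifs and is not printed, and that of Ccna2 was not in the table. They are RefSeq sequences (build of the table GRCm38.p6), each matched once to NCBIM37, read 5′ to 3′ on the strand of the gene, minus in all 4, with motifs in capitals. Bases inside the GENCODE M1 gene are left out, 26 of them in Cdk1 and 84 in Ccnb1, since the 2 annotations put these starts at different positions. The windows are chr9:70269362-70269611 for Ccnb2, chr10:68815687-68815910 for Cdk1, chr13:101556526-101556691 for Ccnb1 and chr10:128142108-128142357 for Cdk2.
Ccnb2: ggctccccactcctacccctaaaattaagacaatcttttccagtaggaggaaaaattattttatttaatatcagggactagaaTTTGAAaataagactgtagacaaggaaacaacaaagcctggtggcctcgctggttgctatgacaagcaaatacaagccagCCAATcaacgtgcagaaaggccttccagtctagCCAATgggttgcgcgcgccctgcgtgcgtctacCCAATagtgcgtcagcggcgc
Cdk1: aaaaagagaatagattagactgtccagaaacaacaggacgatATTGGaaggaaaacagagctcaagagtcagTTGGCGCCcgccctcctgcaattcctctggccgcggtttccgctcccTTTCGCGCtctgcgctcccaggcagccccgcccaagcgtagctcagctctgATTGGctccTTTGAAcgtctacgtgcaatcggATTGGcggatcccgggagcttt
Ccnb1: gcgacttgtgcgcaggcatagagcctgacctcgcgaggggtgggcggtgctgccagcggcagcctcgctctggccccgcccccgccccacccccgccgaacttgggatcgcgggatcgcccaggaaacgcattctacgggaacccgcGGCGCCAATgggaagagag
Cdk2: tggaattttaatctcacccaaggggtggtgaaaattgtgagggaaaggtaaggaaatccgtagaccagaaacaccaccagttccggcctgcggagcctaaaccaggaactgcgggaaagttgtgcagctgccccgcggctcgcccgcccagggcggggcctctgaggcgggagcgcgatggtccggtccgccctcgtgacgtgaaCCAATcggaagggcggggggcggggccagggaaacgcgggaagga

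Over the full 250 bases, Ccnb2 held 3 CCAAT boxes and 1 CHR, and Cdk1 held 3 CCAAT boxes (as ATTGG, the other strand), 2 CHRs and 2 E2F sites. The Ccnb1 window held 2 CCAAT boxes, 1 of which overlaps its 1 E2F site, and 0 CHRs, and the Cdk2 window held 1 CCAAT box. Of the 2 starts of Ccnd3, 1 had a single CCAAT box and the other none of these motifs, and the window of Ccne1 also held none. A match describes these letters in this window and is not a measured site, and its absence says nothing on the factor.

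The first comparison asks how DKO Treg cells differ from WT Treg cells of mLN. Of the 10 genes, 7 rose and 0 fell, where 8.5% of all 16784 genes were called higher, 3.43% lower and 11.9% in either direction. Cyclins A2, B1, B2, E1 and E2 and the kinase Cdk1 rose 2.6-fold to 3.9-fold, and Cdk6 rose 2.07-fold. The D-type cyclins were at 0.807 and 0.816 of their WT levels, which passes the test but not the 1.5-fold limit, and Cdk2 was at 1.19 of its WT level (95% interval 1.01 to 1.41). A gene counted as called when its adjusted p (edgeR's quasi-likelihood test, Benjamini-Hochberg over all genes) did not exceed 0.05 and it changed 1.5-fold or more. By the adjusted p alone 9 of the 10 passed, where 19.4% of all genes did, but for the D-type cyclins this did not hold with library totals or without any 1 of several libraries. The median log2 fold change of the 10 genes was 1.43, beside 0 over all genes. In these bulk samples, more cells in a phase of the cycle and more RNA per cell cannot be told apart.

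The G1 genes come first. Ccnd2, the D-type cyclin with the highest level, was at 647, 654 and 671 CPM in WT against 599, 450 and 543 CPM in DKO Treg libraries. All 3 DKO values lay below all 3 WT values. The log2 fold change was -0.31 ± 0.10 (SE, adjusted p = 0.0397). Ccnd3, which partners with the same kinases, was at 125, 132 and 137 CPM in WT against 111, 111 and 99.3 CPM in DKO Treg libraries. Here too the groups did not overlap, and the log2 fold change was -0.29 ± 0.09 (adjusted p = 0.0293). Ccnd2 no longer passed with library totals (adjusted p = 0.219), without any 1 of the WT replicates, or without DKO replicate 2 or 3, and Ccnd3 no longer did with library totals (0.17), without any 1 of the WT replicates, or without DKO replicate 3. On the deposited TPM scale the log2 ratio of mean levels was nearer to 0, -0.13 for Ccnd2 and -0.12 for Ccnd3, and counts of Ccnd3 are uncertain for its copy. Cdk6, which these cyclins activate, as they do Cdk4, was at 9.12, 10.2 and 8.95 CPM in WT against 19.2, 22.6 and 16.7 CPM in DKO Treg libraries. All 3 DKO values lay above all 3 WT values, and its log2 fold change was 1.05 ± 0.26 (adjusted p = 0.0134). This call was lost without WT replicate 1 (adjusted p = 0.0546), WT replicate 3 (0.0567) or DKO replicate 2 (0.052).

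Ccne1, which activates Cdk2 at the start of S phase, was at 5.83, 6.45 and 6.39 CPM in WT against 12.8, 18.3 and 17.4 CPM in DKO Treg libraries. Every DKO library stood above every WT library, and the log2 fold change was 1.38 ± 0.18 (adjusted p = 0.000389). Ccne2, its paralogue, had the lowest level of the 10 genes, at 2.71, 3.14 and 2.66 CPM in WT against 6.72, 9.27 and 10.3 CPM in DKO Treg libraries. Its groups did not overlap either, and it rose by a log2 fold change of 1.62 ± 0.33 (adjusted p = 0.00456). Their kinase Cdk2 was at 24.2, 29.2 and 28.2 CPM in WT against 28, 35.4 and 33.6 CPM in DKO Treg libraries. The lowest DKO value lay inside the WT range, and the log2 difference of 0.25 ± 0.11 did not pass (adjusted p = 0.139).

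Ccna2, the cyclin of S phase and G2, was at 21.7, 26.3 and 29.7 CPM in WT against 66.2, 100 and 81.2 CPM in DKO Treg libraries. The lowest DKO library exceeded the highest WT library, and the log2 fold change was 1.67 ± 0.19 (adjusted p = 0.000166). Ccnb1, which brings Cdk1 into mitosis, was at 10.7, 13.8 and 15.6 CPM in WT against 28, 55.4 and 36.7 CPM in DKO Treg libraries. Within the DKO group it was highest in replicate 2, as were Ccna2, Ccnb2 and Cdk1, and its log2 fold change was 1.59 ± 0.22 (adjusted p = 0.000517). Ccnb2, the second B-type cyclin, showed the largest change of the 10 genes, from 8.88, 10.8 and 14.4 CPM in WT to 30.9, 56.3 and 45.4 CPM in DKO Treg libraries. These groups did not overlap, and the log2 fold change was 1.96 ± 0.25 (adjusted p = 0.000302). Cdk1, the mitotic kinase, was at 8.71, 13.9 and 14.6 CPM in WT against 31.2, 41.5 and 31.7 CPM in DKO Treg libraries. Again every DKO library was above every WT library, and the log2 fold change was 1.49 ± 0.19 (adjusted p = 0.00034).

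**Figure D2:**
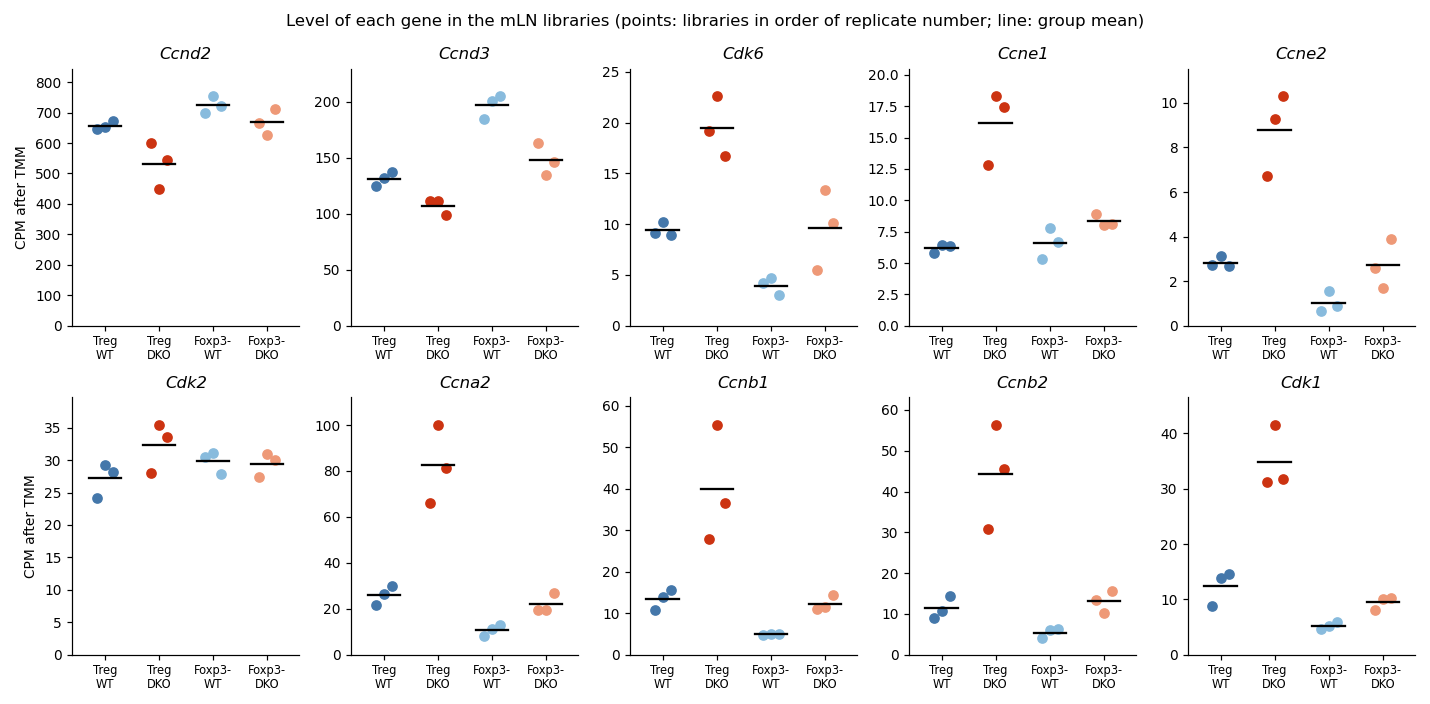
CPM after TMM normalization of each gene in the 12 mLN libraries, 1 panel per gene with its own axis from 0, points for libraries in order of replicate number, and lines for group means. The DKO Treg libraries are highest in 7 of the 10 panels without overlap, and Ccnd2, Ccnd3 and Cdk2 are the other 3.

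In total, DKO and WT Treg libraries did not overlap for 9 of the 10 genes, 7 higher and 2 lower, where 21.3% of all genes were higher and 19.2% lower in that way. Summed Treg markers (5 of 5) were at 1880 to 2040 CPM in WT and lower, at 1480 to 1680 CPM, in DKO Treg libraries, with 1 of the 5 called lower. Of the 6 T cell identity genes 1 was called lower as well. Transcripts that mark other cells also moved with this comparison, although the cells had been sorted as CD4+YFP+. Summed myeloid markers (6 of 7 in the table) were at 2.85 to 4.68 CPM in WT against 14.2 to 26.1 CPM in DKO Treg libraries, with Cd14 at 0 in WT. Summed CD8 and NK markers (4 of 4) were at 21.2 to 28.4 CPM and 75.4 to 160 CPM, with Klrb1c at a mean of 6.54 CPM and 112 CPM. The CD8 and NK list did not move as a set, since 1 of the 4 was called higher and 1 lower. Summed B cell markers overlapped, at 31.8 to 40.3 CPM in WT and 16.7 to 40.1 CPM in DKO, but 2 of the 7 were called higher, Pax5 (means of 0 CPM in WT and 1.48 CPM in DKO, adjusted p = 0.0118) and Cd22 (3.82 CPM and 15.8 CPM, 0.0199), and 1 lower, Cd79b (30.2 CPM and 9.62 CPM, 0.0376). Summed plasma cell markers (2 of 3) were at 0.492 to 1.64 CPM and 0.923 to 10.5 CPM, with Tnfrsf17 at 0 in WT. Their part in the result was not tested. With library totals in place of TMM, the median of all genes in this comparison moved to 0.12 on the log2 scale, and 7 of the 10 genes were again called higher.

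The second comparison asks the same of CD4+Foxp3- T cells of mLN, sorted as YFP-. Of the 10 genes, 5 rose and 0 fell, where 3.12% of all genes were called higher, 0.304% lower and 3.43% in either direction. By the adjusted p alone 6 of the 10 passed, where 3.83% of all genes did. Ccna2, Ccnb1, Ccnb2, Cdk1 and Cdk6 rose 1.8-fold to 2.51-fold, and none of the E-type cyclins, D-type cyclins or Cdk2 was called. The median log2 fold change of the 10 genes was 0.93, beside 0 over all genes. These calls rest on few libraries: 0 of the 10 genes were called without WT replicate 1 (69 genes in all) or without WT replicate 2 (57), 1 without WT replicate 3 (110), 4 without DKO replicate 2 (417) and 3 without DKO replicate 3 (553), while without DKO replicate 1 there were 6 (1453), with all directions of the 5 kept. With every library, 575 genes were called in all.

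Cdk6 was at 4.17, 4.73 and 2.99 CPM in WT against 5.5, 13.4 and 10.1 CPM in DKO libraries of these cells. DKO replicate 1 lay just above the WT values and the other two well above, and the log2 fold change was 1.28 ± 0.28 (adjusted p = 0.0241). Ccnd2 was at 698, 754 and 720 CPM in WT against 665, 625 and 713 CPM in DKO libraries, which overlapped (log2 difference -0.12 ± 0.10, adjusted p = 0.573). Ccnd3 was at 185, 201 and 205 CPM in WT against 163, 135 and 146 CPM in DKO libraries. The DKO values were all below the WT values, with a log2 fold change of -0.41 ± 0.08 (adjusted p = 0.0198) that is smaller than 1.5-fold, and without any 1 of the WT replicates it did not pass (adjusted p up to 0.105).

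Ccne1 was at 5.36, 7.83 and 6.68 CPM in WT against 8.87, 8.02 and 8.13 CPM in DKO libraries of CD4+Foxp3- T cells. The groups lay close together without overlap, and the log2 difference of 0.33 ± 0.18 did not pass (adjusted p = 0.363, 95% interval -0.06 to 0.72). Ccne2 was near the floor, at 0.681, 1.55 and 0.898 CPM in WT against 2.57, 1.69 and 3.89 CPM in DKO libraries, and 8 to 23 reads stood behind each WT value. Its log2 difference of 1.33 ± 0.37 had an adjusted p of 0.0644, and it passed without DKO replicate 1 (0.045), without DKO replicate 2 (0.0206) and with DESeq2 (0.0215). Cdk2 was at 30.5, 31.1 and 27.9 CPM in WT against 27.4, 31 and 30 CPM in DKO libraries, which overlapped fully (log2 difference -0.02 ± 0.11, 95% interval -0.26 to 0.22), and with library totals the sign turned to 0.02.

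Ccna2 was at 8.34, 11.4 and 13.1 CPM in WT against 19.4, 19.6 and 26.9 CPM in DKO libraries of CD4+Foxp3- T cells, a log2 fold change of 1.01 ± 0.20 (adjusted p = 0.0186). Ccnb1 was at 4.68, 5.06 and 4.89 CPM in WT against 11, 11.5 and 14.4 CPM in DKO libraries, a log2 fold change of 1.33 ± 0.24 (adjusted p = 0.0121). In both genes every DKO library stood above every WT library. Ccnb2 was at 4.09, 5.94 and 6.18 CPM in WT against 13.5, 10.1 and 15.6 CPM in DKO libraries, a log2 fold change of 1.26 ± 0.26 (adjusted p = 0.0204). Cdk1 was at 4.6, 5.27 and 5.88 CPM in WT against 8.16, 9.99 and 10.2 CPM in DKO libraries, a log2 fold change of 0.85 ± 0.21 (adjusted p = 0.0387). These groups did not overlap either. Without 1 library, the adjusted p of these genes and of Cdk6 reached at most 0.165.

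Over all 10 genes, 7 were higher without overlap in DKO and 1 lower, where 11.1% of all genes were higher and 9.74% lower in that way. Summed myeloid markers were at 6.75 to 8.58 CPM in WT against 7.54 to 26.2 CPM in DKO CD4+Foxp3- T cells, with Csf1r and Cd14 at 0 in WT. CD8 and NK markers were at 29.8 to 34.2 CPM and 40.4 to 141 CPM, with 1 of the 4 called higher and 1 lower. Summed B cell markers were at 5.69 to 6.95 CPM and 8.87 to 20.8 CPM, plasma cell markers at 1.2 to 1.36 CPM and 1.6 to 12.2 CPM, and Treg markers (5 of 5) at 133 to 137 CPM and 177 to 348 CPM. Their part in the result was not tested.

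**Figure D3:**
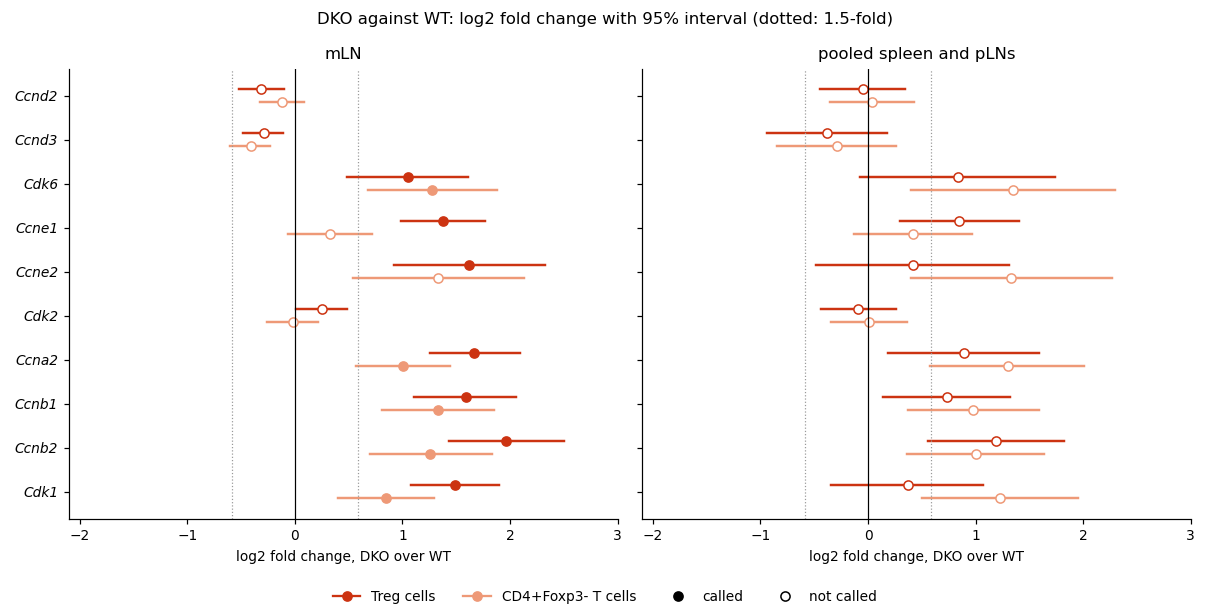
Log2 fold change of DKO over WT for each gene, with 95% intervals, in mLN (left) and in pooled spleen and pLNs (right), in Treg cells and in CD4+Foxp3- T cells, with filled points for called genes and dotted lines at 1.5-fold. In mLN 7 genes are called in Treg cells and 5 in CD4+Foxp3- T cells, and in spleen and pLNs 0 of 10 in either.

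Whether the change differed between the cell types of mLN was tested as the interaction of genotype and cell type. None of the 10 genes passed (0 of 10, where 0.28% of all genes did), and 3 had an unadjusted p under 0.05, as had 1827 of all 16784 genes. Ccne1 came closest, with a difference of 1.05 ± 0.25 on the log2 scale (adjusted p = 0.114), a 2.07-fold larger change in Treg cells (95% interval 1.41 to 3.03), and DESeq2 called it (adjusted p = 0.021). Ccna2 differed by 0.67 ± 0.28 (adjusted p = 0.39) and Cdk1 by 0.64 ± 0.28 (adjusted p = 0.423). For Ccnb1 the difference was 0.26 (95% interval -0.45 to 0.96) and for Cdk6 -0.23 (95% interval -1.04 to 0.59). For Ccne2 it was 0.29 ± 0.50 (adjusted p = 0.966, 95% interval -0.79 to 1.37). So neither of the E-type cyclins, called in Treg cells and not in CD4+Foxp3- T cells, was shown to differ between them by edgeR's test. With the replicate number within a genotype as a block, as would be due in mLN if a number marks a mouse, 118 genes in place of 47 passed, and again 0 of the 10.

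The third question is how Treg cells differ from CD4+Foxp3- T cells within a genotype. These comparisons share their libraries with those above and are not independent of them. In WT mice of mLN, 6 of the 10 genes were called higher in Treg cells and 1 lower, where 6.91% of all genes were called higher, 3.14% lower and 10.1% in either direction. Ccna2 was 2.37-fold, Ccnb1 2.73-fold, Ccnb2 2.09-fold, Ccne2 2.65-fold, Cdk1 2.36-fold and Cdk6 2.35-fold higher, with adjusted p between 0.00113 and 0.0205. Ccnd3 was lower in Treg cells by a log2 fold change of -0.59 ± 0.09 (adjusted p = 0.000509), just past the 1.5-fold limit, and with library totals or without Treg replicate 1 or CD4+Foxp3- replicate 2 or 3 it no longer was. Without 1 library, Ccnb2 lost its call in 2 cases and Ccne2 in 3, and the highest adjusted p were 0.0767 and 0.0874. Summed B cell markers were at 31.8 to 40.3 CPM in WT Treg against 5.69 to 6.95 CPM in WT CD4+Foxp3- T cells, with Cd79b called higher (means of 30.2 CPM and 1.89 CPM), and myeloid markers at 2.85 to 4.68 CPM and 6.75 to 8.58 CPM, with Lyz2 called higher and Itgam lower. CD8 and NK markers were at 21.2 to 28.4 CPM and 29.8 to 34.2 CPM and plasma cell markers at 0.492 to 1.64 CPM and 1.2 to 1.36 CPM, and the part of these markers was not tested.

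Ccne1, Ccnd2 and Cdk2 were not called between the cell types in WT mice of mLN. The log2 difference was -0.09 (95% interval -0.49 to 0.3) for Ccne1, -0.14 (-0.35 to 0.07) for Ccnd2 and -0.13 (-0.38 to 0.11) for Cdk2. WT groups did not overlap for 6 genes that were higher and 2 that were lower in Treg cells, where 22.3% and 19.2% of all genes were so.

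In DKO mice of mLN, 7 of the 10 genes were called higher in Treg cells and 0 lower, where 7.75% of all genes were called higher, 3.49% lower and 11.2% in either direction. By the adjusted p alone 9 of the 10 passed, where 17.6% of all genes did. Ccna2 was 3.76-fold (adjusted p = 4.27e-05), Cdk1 3.68-fold (4.91e-05), Ccnb2 3.4-fold, Ccnb1 3.26-fold, Ccne2 3.24-fold and Cdk6 2.01-fold higher. Ccne1, not called in WT mice, was 1.94-fold higher in DKO Treg cells (adjusted p = 0.00237), and the test of that difference is the interaction given above. Ccnd2 differed by -0.33 ± 0.10 on the log2 scale (adjusted p = 0.0304) and Ccnd3 by -0.47 ± 0.09 (adjusted p = 0.00224), both under 1.5-fold, and Ccnd2 did not pass with library totals (0.215) or without Treg replicate 2, Treg replicate 3 or CD4+Foxp3- replicate 3. Without overlap, 7 of the 10 genes were higher and 2 lower in DKO Treg cells, where 15.1% and 12.3% of all genes were so. The Cdk6 call was lost without DKO Treg replicate 2 (adjusted p = 0.063). Between DKO Treg and DKO CD4+Foxp3- T cells the summed B cell, plasma cell, myeloid and CD8 and NK markers overlapped, with Cd68 called higher and Cd8b1 lower in Treg cells, and their part was not tested either.

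**Figure D4:**
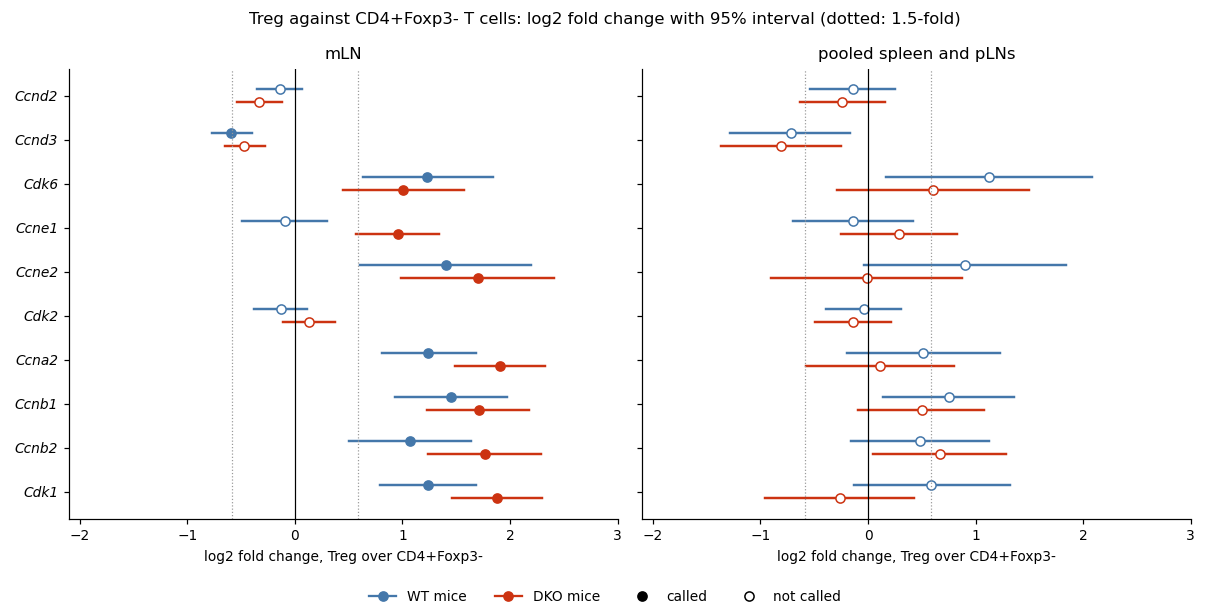
Log2 fold change of Treg cells over CD4+Foxp3- T cells for each gene, with 95% intervals, in mLN (left) and in pooled spleen and pLNs (right), for WT and DKO mice, with filled points for called genes and dotted lines at 1.5-fold. In mLN, points of 7 genes are filled in each genotype, with Ccnd3 on the left in WT and Ccne1 among the higher ones only in DKO.

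The share of Ccnd2 in the sum of both D-type cyclins was read from TPM. In mLN it was 65.8% to 67% in WT Treg cells, 61.3% to 68.2% in DKO Treg cells, 57.9% to 59.6% in WT CD4+Foxp3- T cells and 61.6% to 65.6% in DKO CD4+Foxp3- T cells. Among CD4+Foxp3- T cells, the 3 DKO values were all above the 3 WT values, whereas Treg cells of both genotypes overlapped. In spleen and pLNs the share was 65% and 65.1% in WT Treg cells and 69% and 71.3% in DKO Treg cells, and 55% and 55.8% in WT and 56.2% and 67.8% in DKO CD4+Foxp3- T cells. Ccnd3 reads shared with its pseudogene touch these values.

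Mki67, the gene of the proliferation antigen Ki-67, served as a yardstick in mLN. It was at 12 to 22.4 CPM in WT and 70.5 to 95.1 CPM in DKO Treg cells, and at 7.49 to 9.79 CPM and 17.2 to 29.6 CPM in CD4+Foxp3- T cells. Per 100 Mki67 reads, Ccnb2 had 53.5 to 74 reads in WT Treg, 43.9 to 69.5 in DKO Treg, 54.5 to 72.1 in WT and 52.5 to 75.6 in DKO CD4+Foxp3- T cells, so that all 4 groups overlapped. Cdk1 had 64.9 to 72.6 in WT and 33.4 to 51.2 in DKO Treg cells, and Ccnd2 2990 to 5390 in WT and 555 to 850 in DKO Treg cells, both without overlap. Ccna2 had 130 to 181 and 85.4 to 124, and Cdk2 126 to 202 and 35.4 to 43.7, again apart. Ccnd3 had 609 to 1040 and 105 to 157, and Cdk6 39.9 to 76 and 17.6 to 28. Ccne1 had 28.5 to 48.6 and 18.2 to 22.5, and Ccne2 11.8 to 22.6 and 9.53 to 11.4. These were apart as well and lower in DKO, while Ccnb1, at 68.2 to 89 and 38.7 to 68.4, overlapped. Mki67 itself rose, so a gene with a smaller rise falls per Mki67 read. These ratios are a description, with no test, and were not read in spleen and pLNs, where the share of reads in long genes varied most between libraries, since Mki67 lies at percentile 98 of gene length.

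In pooled spleen and pLNs, 0 of the 10 genes were called between DKO and WT Treg cells, where 1.74% of all genes were called, 1.14% higher and 0.605% lower. These 285 genes became 11 without DKO replicate 1, 1696 without DKO replicate 2 and 4 without WT replicate 1 or without WT replicate 2, and 0 of the 10 were called in each case. By edgeR's test 4 of the 10 had an unadjusted p under 0.05, as had 3345 of all 16357 genes, and DESeq2 called 1 of them, Ccnb2. The median log2 difference of the 10 genes was 0.57, beside 0.02 over all genes. Ccnb2 was at 15.2 and 15.2 CPM in WT against 35.1 and 34.3 CPM in DKO Treg libraries, a log2 difference of 1.19 ± 0.29 (adjusted p = 0.0608). Ccna2 was at 17.8 and 16.6 CPM in WT against 33.8 and 30 CPM in DKO (0.89 ± 0.32, adjusted p = 0.146). Both genes had DKO values near each other and apart from WT.

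Ccnb1 was at 11.8 and 10.4 CPM in WT against 17.5 and 19.3 CPM in DKO Treg libraries of spleen and pLNs (0.73 ± 0.27, adjusted p = 0.155), and Ccne1 at 5.61 and 5.57 CPM in WT against 9.27 and 10.9 CPM in DKO (0.85 ± 0.25, adjusted p = 0.095). These groups did not overlap. Cdk1 at 11.5 and 12.2 CPM in WT against 13.6 and 16.9 CPM in DKO, Ccne2 at 4.61 and 3.76 CPM and 5.04 and 6.14 CPM, and Cdk6 at 9.61 and 8.63 CPM and 20.1 and 12.4 CPM were also higher in each DKO library, with adjusted p between 0.281 and 0.627. Ccnd2 was at 642 and 700 CPM in WT against 578 and 715 CPM in DKO, Ccnd3 at 135 and 148 CPM and 91.2 and 126 CPM, and Cdk2 at 30.9 and 32.6 CPM and 31.2 and 28.5 CPM. For Ccnd2 and Cdk2 the groups overlapped and library totals turned the sign, to 0.12 and 0.1. Without overlap, 7 of the 10 genes were higher and 1 lower, where 28.1% and 26.1% of all genes were so.

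Markers of other cells moved here too. In Treg cells of spleen and pLNs, summed plasma cell markers were at 4.25 to 5.53 CPM in WT, with Tnfrsf17 at 0, and at 16.2 to 90.6 CPM in DKO, summed myeloid markers at 2.69 to 4.87 CPM and 12.1 to 33 CPM, CD8 and NK markers at 23.3 to 27.1 CPM and 98.1 to 119 CPM, and B cell markers at 35.4 to 38.8 CPM and 23.7 to 62.1 CPM. Of the 7 B cell markers 1 was called higher and 1 lower, and of the 4 CD8 and NK markers 2 were called higher and 0 lower. Their part in the values was not tested. With a correction for gene length, 0 of the 10 genes were again called in each comparison of this tissue.

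In CD4+Foxp3- T cells of spleen and pLNs, 0 of the 10 genes were called either, where 0.819% of all genes were, 0.77% higher and 0.0489% lower, and 6 had an unadjusted p under 0.05 by edgeR's test, as had 2102 of all 16357 genes. DESeq2 called 1, Ccna2. Ccna2 was at 11.9 and 12.1 CPM in WT against 42.4 and 16.7 CPM in DKO, a log2 difference of 1.3 ± 0.33 (adjusted p = 0.0948) that was 0.47 without DKO replicate 1. Cdk1 was at 7.37 and 8.28 CPM in WT against 25.6 and 11 CPM in DKO, Ccnb2 at 10.3 and 11.6 CPM and 29.9 and 13.6 CPM, and Ccnb1 at 6.53 and 6.67 CPM and 16.8 and 9.19 CPM. In all 4 genes DKO replicate 1 stood far above DKO replicate 2, which itself lay above WT.

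The same split held for Ccne2, at 1.97 and 2.49 CPM in WT against 7.97 and 3.26 CPM in DKO, and for Cdk6, at 3.95 and 4.42 CPM in WT against 16.1 and 5.19 CPM in DKO. Ccnd3 was at 233 and 234 CPM in WT against 132 and 250 CPM in DKO, so that here replicate 1 was the low one. Ccne1 at 6.23 and 6.11 CPM in WT against 8.92 and 7.56 CPM in DKO, Ccnd2 at 726 and 756 CPM and 708 and 818 CPM, and Cdk2 at 31.4 and 33.8 CPM and 35.4 and 30.3 CPM lay closer together. Without overlap, 7 of the 10 genes were higher in DKO and 0 lower, where 20.8% and 21.1% of all genes were so. Without DKO replicate 2, 7 of the 10 genes were called (6 higher and Ccnd3 lower) among 2751 genes in all, and without DKO replicate 1, 0 of 10 among 83, where both replicates gave 134. The log2 difference without replicate 1 and without replicate 2 was 0.47 and 1.82 for Ccna2, 0.47 and 1.35 for Ccnb1, 0.32 and 1.46 for Ccnb2, 0.48 and 1.71 for Cdk1, 0.54 and 1.83 for Ccne2 and 0.31 and 1.95 for Cdk6. It was 0.09 and -0.83 for Ccnd3, 0.29 and 0.53 for Ccne1, 0.14 and -0.07 for Ccnd2 and -0.11 and 0.12 for Cdk2. So which of these genes are called rests on 1 library. The study describes its DKO mice for this tissue as littermates, of which 1 had the more enlarged spleen. The labels do not say which replicate came from it, and its part in these values was not tested. Plasma cell markers were at 3.72 to 3.78 CPM in WT, with Tnfrsf17 at 0, and at 25.4 to 123 CPM in DKO, Treg markers at 199 to 220 CPM and 226 to 707 CPM, and myeloid markers at 6.99 to 8.04 CPM, with Cd14 at 0, and 16.8 to 26.8 CPM. CD8 and NK markers were at 72.8 to 113 CPM and 114 to 216 CPM and B cell markers at 13.6 to 16.4 CPM and 18.2 to 23.8 CPM. Their part in the values was not tested.

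**Figure D5:**
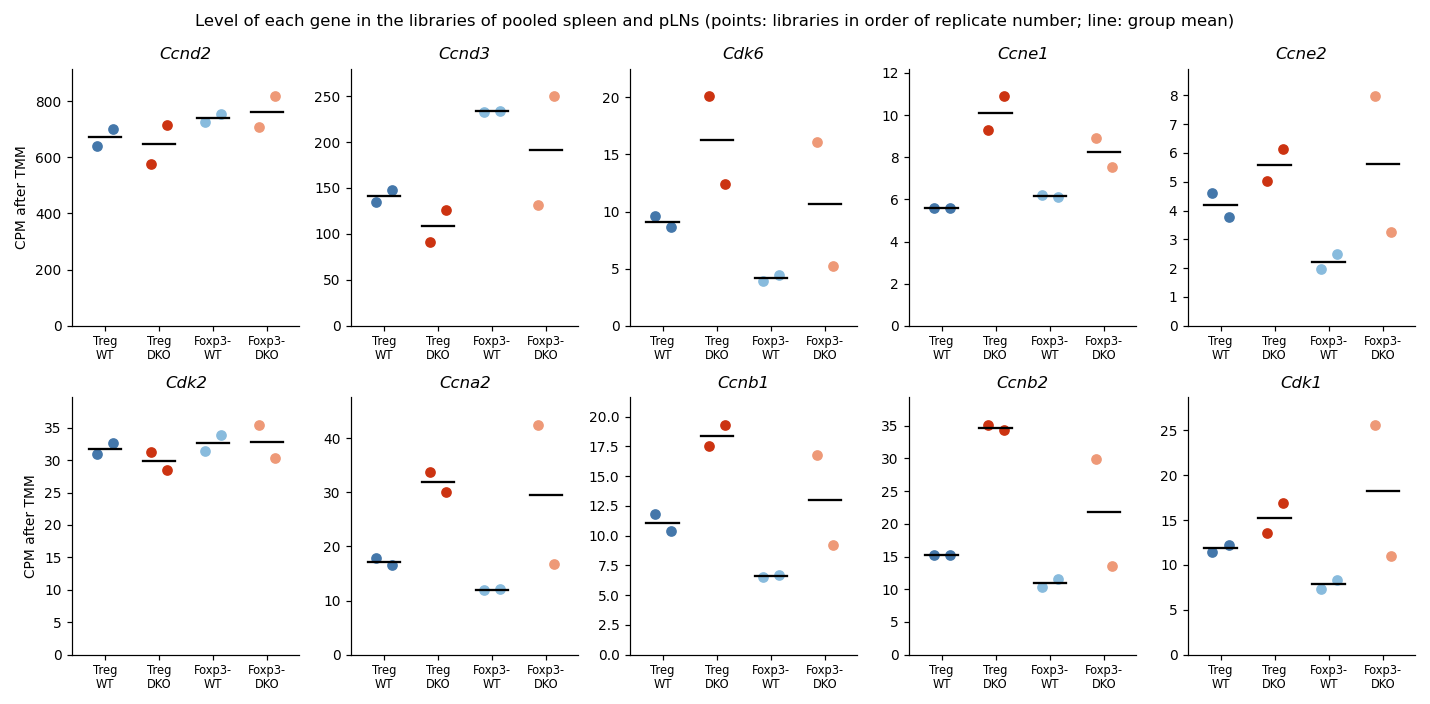
CPM after TMM normalization of each gene in the 8 libraries of pooled spleen and pLNs, 1 panel per gene with its own axis from 0, points for libraries in order of replicate number, and lines for group means. In CD4+Foxp3- DKO cells the first point lies far above the second for Ccna2, Ccnb1, Ccnb2, Ccne2, Cdk1 and Cdk6, and below it for Ccnd3.

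Between Treg and CD4+Foxp3- T cells of spleen and pLNs, 0 of the 10 genes were called in WT mice, where 4% of all genes were (2.48% higher and 1.52% lower), and 0 of 10 in DKO mice, where 3.77% were (2.16% higher and 1.61% lower). Without overlap, 6 genes were higher and 3 lower in WT mice, where 28.1% and 27.2% of all genes were so, and 3 were higher and 1 lower in DKO mice, where 17.4% and 15.3% were so. Ccnd3 differed by -0.72 ± 0.26 in WT (adjusted p = 0.185) and by -0.81 ± 0.26 in DKO mice (adjusted p = 0.126), and 3 and 2 of the 10 genes had an unadjusted p under 0.05, as had 2243 and 2323 of all 16357 genes. DESeq2 called 0 of 10 in either. With the replicate number within a genotype as a block, as would be due if a number marks a mouse, 360 genes in place of 654 were called in WT and 348 in place of 617 in DKO mice, and again 0 of the 10. In DKO mice 5 of the 10 genes were called without CD4+Foxp3- replicate 1 (Ccna2, Ccnb1, Ccnb2 and Cdk6 higher, Ccnd3 lower), among 1586 genes in all, and 1, Cdk1, lower, without replicate 2, among 1311. The interaction called 0 of 10 here, with 0 at an unadjusted p under 0.05, where 0.00611% of all genes were called, and 2, among 674 genes in all, without CD4+Foxp3- DKO replicate 2. DESeq2 called 0 of 10 for the interaction.

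Around these genes stand their regulators, given here for mLN as counts over whole lists, beside a median of 0 over all genes and beside 8.5% of all genes called higher and 3.43% lower in DKO Treg cells and 3.12% and 0.304% in DKO CD4+Foxp3- T cells. Of 8 other cell cycle cyclins and kinases with counts (10 listed), 2 rose in DKO Treg cells, with a median log2 fold change of 0.47. They were Ccnf, the F-box cyclin of the ubiquitin ligase SCF, from a mean of 6.14 CPM to 17.4 CPM (log2 fold change 1.5 ± 0.25, adjusted p = 0.00139), and Cdk14, which was at or near 0 in WT with a mean of 0.0274 CPM and at 1.36 CPM in DKO. Ccng2, a cyclin tied to arrest of the cycle, was at 0.682 of its WT level (adjusted p = 0.00779), under the 1.5-fold limit. In CD4+Foxp3- T cells 0 of the 8 were called, with a median of 0.22.

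Of 16 cyclins and kinases of transcription and splicing, 0 were called in either cell type, where 11.9% and 3.43% of all genes were, with medians of -0.17 and -0.06. By adjusted p alone, 2 were higher and 3 lower in DKO Treg cells, and 0 passed in CD4+Foxp3- T cells. Cdk19 (-0.38 ± 0.08, adjusted p = 0.00649) and Mnat1 (-0.45 ± 0.12, adjusted p = 0.0197) led this list in Treg cells, a Mediator kinase and a partner of Cdk7.

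CDK activators and Cks subunits rose in 5 of 8 genes in DKO Treg cells (median 1.09) and in 2 of 8 in CD4+Foxp3- T cells (median 0.92). Cks1b, a subunit that binds CDKs, rose in both, by 1.34 ± 0.21 (adjusted p = 0.001) and 0.99 ± 0.21 (adjusted p = 0.0234). Cdc25b, a phosphatase that activates CDKs, rose by 1.74 ± 0.38 in CD4+Foxp3- T cells (adjusted p = 0.0241), and Cdc25c rose by 1.62 ± 0.35 in Treg cells (adjusted p = 0.00608).

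Of 10 CDK inhibitors and inhibitory kinases, 5 rose in DKO Treg cells (median 0.85) and 2 in CD4+Foxp3- T cells (median 0.88), and the others were not called. Cdkn1b, an inhibitor of Cdk2, named after its values were seen, was at 0.826 of its WT level in Treg cells (adjusted p = 0.0429), under the 1.5-fold limit. Cdkn3, a phosphatase that acts on CDKs, rose by 1.81 ± 0.34 in Treg cells (adjusted p = 0.00295), and Cdkn2a, which encodes an inhibitor of Cdk4 and Cdk6, rose from a mean of 0.0931 CPM to 1.4 CPM (adjusted p = 0.0076). Cdkn1a, an inhibitor induced in cell cycle arrest, rose by 1.29 ± 0.29 in Treg cells (adjusted p = 0.00846) and by 1.69 ± 0.36 in CD4+Foxp3- T cells (adjusted p = 0.0231). Cdkn2c, another inhibitor of Cdk4 and Cdk6, rose by 1.47 ± 0.34 in CD4+Foxp3- T cells (adjusted p = 0.0322).

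Among 13 E2F and pocket protein genes, 4 rose in DKO Treg cells (median 0.23) and 0 in CD4+Foxp3- T cells (median 0.05). E2f1, an activator of S phase genes, went from a mean of 5.93 CPM to 15.8 CPM (1.41 ± 0.13, adjusted p = 7.05e-05), and E2f8, a repressor of the same family, rose by 1.78 ± 0.27 (adjusted p = 0.000863). Rbl2, a pocket protein of resting cells, was at 0.685 of its WT level (adjusted p = 0.000574), under the 1.5-fold limit. Of 7 DREAM and MuvB genes, which govern CHR promoters, 2 rose in Treg cells, Mybl2 (2.05 ± 0.20, adjusted p = 9.44e-05) and Foxm1 (1.57 ± 0.28, adjusted p = 0.00215), with a median of -0.13 over the list, and 0 in CD4+Foxp3- T cells.

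Genes that destroy cyclins or time their destruction rose in 6 of 10 in DKO Treg cells (median 0.79) and in 1 of 10 in CD4+Foxp3- T cells (median 0.29). Cdc20, the activator of the ligase that removes cyclin B, rose in both, by 1.74 ± 0.23 (adjusted p = 4e-04) and 0.95 ± 0.24 (adjusted p = 0.0433), and Ube2s, which extends ubiquitin chains for the same ligase, rose by 0.69 ± 0.09 in Treg cells (adjusted p = 0.000389). Of 15 proliferation markers, 13 rose in Treg cells (median 1.11) and 7 in CD4+Foxp3- T cells (median 0.66), with Mcm3 of the replicative helicase (0.9 ± 0.08, adjusted p = 5.03e-05), Rrm2 of nucleotide synthesis (1.4 ± 0.14, adjusted p = 0.000103) and Mki67 (2.18 ± 0.24, adjusted p = 0.00013) in front in Treg cells. In spleen and pLNs, where 1.74% of all genes were called in Treg cells and 0.819% in CD4+Foxp3- T cells, 3 genes of these 8 lists were called in Treg cells. They were 1 of the 10 inhibitors, Cdkn1a (1.62 ± 0.34, adjusted p = 0.0372), 1 of the 7 DREAM and MuvB genes, Foxm1 (1.86 ± 0.36, adjusted p = 0.0259), and 1 of the 15 proliferation markers, Mki67 (3.48 ± 0.72, adjusted p = 0.0361), and 0 genes of the lists were called in CD4+Foxp3- T cells. Mki67, a long gene, was at 1.61 and 1.25 CPM in WT against 27.5 and 4.44 CPM in DKO Treg cells there, highest in DKO replicate 1, the library with 10.1% of its reads in the longest genes. Without that library 11 genes in all were called in this comparison, against 285 with it, and the part of gene length in the Mki67 value was not tested.

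Last, the genes with the most similar pattern were found over the 12 mLN libraries by Pearson's r of log2 CPM, among 8410 genes whose mean reached 10 CPM. The points share libraries, depth and normalization, and r over the 8 libraries of spleen and pLNs stands beside it, with no test of either. Ccna2 went with Dtl (r = 0.993 in mLN and 0.984 in spleen and pLNs) and Bub1b (0.992 and 0.951), and Ccnb1 with C330027C09Rik (0.991 and 0.952) and Birc5 (0.987 and 0.992). Ccnb2 went with Tpx2 (0.989 and 0.944), Cdk1 with Top2a (0.993 and 0.747), Ccne2 with Dtl (0.97 and 0.947) and Ccne1 with Tcf19 (0.97 and 0.867). Cdk6 was most like Tfdp2 (0.985 and 0.918), Ccnd3 most like Prex1 (0.978 and 0.809) and Ccnd2 most like Lrig2 (0.97 and 0.34). Cdk2, with the smallest range, reached 0.898 with Tmem129, and 0.194 in spleen and pLNs.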

How the data were processed

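RNA of 20 sorted T cell samples was sequenced by the authors with strand-specific mRNA libraries and single-end reads of 50 bases. The authors mapped the reads with TopHat2 2.1.1 (mm9, no more than 1 alignment for a read), and the deposited counts were made by strand over RefSeq genes with featureCounts (Subread 1.4.3-p1). They were not normalized. The deposited TPM were computed by the authors in a way not given in the sources used here. All columns were used, and 0 were left without a sample.

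Counts of genes with at least 1 count in total (16357 of 16740 in spleen and pLNs, and 16784 in mLN) were tested with the quasi-likelihood test of edgeR 4.0.16 (limma 3.58.1, R 4.3.3) after TMM, with the 4 groups of a tissue in 1 fit and no block. Calls needed an adjusted p (Benjamini-Hochberg, over all genes) not above 0.05 and a change of 1.5-fold or more (for the interaction, at the adjusted p alone). CPM are after TMM, log2 CPM used a prior count of 2, and 3 counts, the floor, were 0.172 to 0.299 CPM, which covers counting error only. The edgeR fit gave biological coefficients of variation of 21.6% (spleen and pLNs) and 17.7% (mLN), and its script was checked beforehand on simulated counts. Copies were searched with minimap2 2.31 (at least 90% identity over at least 100 bases).

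In mLN, deviations of same-numbered Treg and CD4+Foxp3- libraries of a genotype correlated at 0.348 to 0.425 in WT and 0.138 to 0.544 in DKO mice. The numbers may thus pair these libraries, which the labels do not say. For DKO replicate 1 the value of 0.138 lay below the 0.234 between WT and DKO CD4+Foxp3- replicate 1, so pairing is not shown for it. In mLN, same-numbered DKO and WT libraries of a cell type (-0.0532 to 0.234) were not treated as paired.

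Named are the 10 genes, up to 3 genes of each list with the smallest adjusted p in each DKO comparison of mLN, Mki67, Foxp3, Tet2 and Tet3, and the genes most like a member. The 10 genes and the lists were chosen with earlier results of these data known. Alternatives were DESeq2's size factors, the Wald test of DESeq2 1.42.0, a block of replicate numbers, filterByExpr, calls without the 1.5-fold limit, TPM, leaving out each replicate, and, chosen after seeing the data, library totals without TMM, a loess correction for gene length (span 0.5) and a block within genotype.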

Additional observations from a re-analysis of the deposited data

How the results depend on the processing

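Of the log2 values of the 10 genes over the alternatives that tested counts, 1247 kept direction and side of the thresholds, 36 turned their sign, 31 lost a call and 26 gained one. The cause of these shifts was not tested. The direction of the members called in mLN held in each of these alternatives. On the deposited TPM scale, 51 log2 ratios of mean levels moved by less than the spread between replicates and 29 by more, all 10 of spleen Treg DKO among them (Ccnb2 from 1.19 to 1.53). By DESeq2's Wald test 1 of the 10 genes was called in spleen Treg DKO against WT, 1 in spleen CD4+Foxp3- DKO against WT and 1 in the mLN interaction, where 0 were by edgeR. Over all genes that test called 663 (285 by edgeR), 363 (134) and, for the interaction, 11 (1) in spleen and pLNs, and 924 (575) in mLN CD4+Foxp3- T cells and 402 (47) in the mLN interaction. With filterByExpr, spleen and pLNs gave 24, 1, 379, 342 and 0 genes for Treg DKO against WT, CD4+Foxp3- DKO against WT, WT and DKO Treg against CD4+Foxp3- T cells (654 and 617 otherwise) and the interaction. Library totals gave 46 and 1 genes in the spleen DKO comparisons, DESeq2's size factors gave 2 for the spleen interaction, and the length correction gave 71 for spleen CD4+Foxp3- DKO and 3 for the interaction. Without the fold limit 3249 genes in place of 2001 were called in mLN Treg DKO and 2956 in place of 1885 in mLN DKO Treg against CD4+Foxp3-. With library totals the median of all genes reached up to 0.2 on the log2 scale, in spleen Treg DKO, where it was 0.02 with TMM. Library totals moved the calls of mLN DKO Treg against CD4+Foxp3- from 1300 higher and 585 lower to 1653 and 388, and those of the mLN interaction from 20 and 27 to 32 and 23.

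The replicate block left the counts of called members as they were in every comparison. With this block over all groups, the mLN interaction had 40 genes and Ccne2 in spleen DKO Treg against CD4+Foxp3- turned to 0.04. In spleen and pLNs, the labels do not say whether a number marks a mouse (correlations of 0.206 to 0.319), although the study took both cell types from the same DKO littermates. The block within genotype gave 360 genes in WT and 348 in DKO Treg against CD4+Foxp3- there, 0 in the interaction and 0.09 for Ccne2, and 118 genes in the mLN interaction, with 0 members in each of these but the mLN comparisons of cell types, where it was 7 in both genotypes.

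Further sign turns were of values near 0. With library totals they were Ccnd2 (0.12) and Cdk2 (0.1) in spleen Treg DKO, Cdk2 (0.01) in spleen WT Treg against CD4+Foxp3-, Ccne2 (0.01) in spleen DKO Treg against CD4+Foxp3- and Cdk2 (0.02) in mLN CD4+Foxp3- DKO, and with the length correction Ccne2 again (0.01).

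Leaving out 1 library each, genes called ranged from 4 to 1696 in spleen Treg DKO, 1 to 2751 in CD4+Foxp3- DKO, 144 to 198 in WT and 185 to 1586 in DKO Treg against CD4+Foxp3-, and 0 to 674 in the interaction. In mLN the ranges were 1325 to 1946, 57 to 1453, 1149 to 1263, 1520 to 2934 and 9 to 462. Members called ranged in the same order from 0 to 0, 0 to 7, 0 to 0, 0 to 5 and 0 to 2 in spleen and from 6 to 7, 0 to 6, 5 to 6, 6 to 7 and 0 to 0 in mLN. Log2 values that turned sign ranged in spleen Treg DKO from -0.22 to 0.09 (Ccnd2), in CD4+Foxp3- DKO from -0.11 to 0.12 (Cdk2), -0.83 to 0.09 (Ccnd3) and -0.07 to 0.14 (Ccnd2), in WT Treg against CD4+Foxp3- from -0.09 to 0.01 (Cdk2), and in DKO from -0.51 to 0.77 (Ccne2), -0.74 to 0.47 (Cdk1) and -0.41 to 0.93 (Ccna2). In the spleen interaction they ranged from -0.92 to 0.42 (Ccna2), -0.62 to 0.25 (Ccnb1), -0.27 to 0.87 (Ccnb2), -0.26 to 0.04 (Ccnd2), -0.48 to 0.45 (Ccnd3), -0.21 to 0.02 (Cdk2) and -1.11 to 0.53 (Cdk6). In mLN they ranged from -0.06 to 0.03 (Cdk2, CD4+Foxp3- DKO), -0.23 to 0.05 (Ccne1, WT Treg against CD4+Foxp3-) and, in the interaction, -0.05 to 0.46 (Ccnb1), -0.15 to 0.64 (Ccne2) and -0.53 to 0.07 (Cdk6). Where 1 replicate of 2 was left out, the lone sample is assumed to vary like the other groups. Depth limits Ccne2 most, with 8 to 23 reads in WT CD4+Foxp3- T cells of mLN.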
